A study of Mus musculus with 8 samples.

Results

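Nupr1 and 9 genes of the integrated stress response were examined in mouse pancreas with and without the transcription factor Bach2. They are Nupr1, Atf4, Atf5, Ddit3, Trib3, Chac1, Asns, Sesn2, Ppp1r15a and Fgf21, 10 of the 21434 genes in the deposited table. The set was chosen by name with the measured difference between Bach2KO and Bach2WT already known, so the values by genotype are given for these 10 genes as a description. Counts of those past a threshold are set beside the share over all genes, and nothing is read from them. All 10 were among the 12820 genes that passed the filter on low counts.

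The integrated stress response begins when kinases that sense amino acid shortage, unfolded protein in the endoplasmic reticulum, double-stranded RNA or haem deficiency phosphorylate the translation initiation factor eIF2. General translation then slows, while a few mRNAs with upstream open reading frames, among them those of Atf4 and Atf5, are translated more, and ATF4 switches on genes of amino acid supply, redox control and cell death. Acinar cells, which make the digestive enzymes and carry a heavy load of secretory protein, depend on this pathway, and Nupr1, a small chromatin-associated stress protein, was first described as a gene induced in the inflamed pancreas. Much of the pathway is controlled at translation, which mRNA levels do not show.

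RNA was sequenced from the pancreas of 4 Bach2KO and 4 Bach2WT mice, all untreated and 18 weeks old, with 2 females (mice 1 and 2) and 2 males (mice 3 and 4) in each group. Both groups are of the strain C57BL/6N-Bach2tm1b(EUCOMM)Wtsi/leg. Bach2KO mice are homozygous for the tm1b allele, made by Cre excision from tm1a, which removes Bach2 in the whole body and not in a chosen pancreatic cell type, and Bach2WT mice carry the wild-type gene.

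The libraries held 72299745 to 172029360 counts on genes, of which 33 digestive enzyme genes took 82.2 to 85.1%. Library Bach2KO 3 stood apart on the first principal component, at 101.8 against -34.8 to 7.22 for the other libraries. Bach2 itself had 3 to 16 counts in the Bach2KO and 4 to 31 counts in the Bach2WT libraries, too few to check the labels. Acinar markers were at 528949 to 600077 CPM, counts scaled to a common library size, in Bach2KO and 589909 to 790048 CPM in Bach2WT, as sums over 14 genes. The scaling used TMM factors of 1.05 to 1.18 in Bach2KO and 0.826 to 1.10 in Bach2WT, and a larger factor lowers the sum. Without scaling, the enzyme genes took 82.2 to 84.0% of the counts in Bach2KO and 83.9 to 85.1% in Bach2WT. Of 13 cell type marker lists, the summed level was apart between the genotypes in 1, the neutrophil list, at 0.0726 to 0.647 CPM in Bach2KO and 0 to 0.0666 CPM in Bach2WT. All 4 of its markers, S100a8, S100a9, Mpo and Elane, were at 0 in some libraries.

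Promoters were searched for the C/EBP-ATF response element, the composite site that ATF4 and C/EBP proteins bind, since it is the sequence through which the pathway is known to act. The core TGATGNAA was looked for on both strands in the 250 bases before each annotated start in RefSeq promoters of build GRCm38.p6, which held 11 promoters for the 10 genes. It was present for 4 of 10 genes, against 3.45% of 32851 promoters. The genes were chosen as members of this pathway, so a share above that of all promoters could be foreseen. For Trib3, counted as lacking the core, the bases after the annotated start were not found in a reference transcript, so its start is uncertain. The 60 bases around each match are shown with the matched letters in capitals, since the same 8 letters stand in 3 of them.

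Nupr1, chr7:126625547-126625606, minus strand: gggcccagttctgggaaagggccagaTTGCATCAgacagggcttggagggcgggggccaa
Chac1, chr2:119351023-119351082, plus strand: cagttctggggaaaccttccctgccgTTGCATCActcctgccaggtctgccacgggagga
Fgf21, chr7:45615596-45615655, minus strand: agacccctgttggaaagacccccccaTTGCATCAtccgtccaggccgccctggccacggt
Asns, chr6:7693210-7693269, minus strand: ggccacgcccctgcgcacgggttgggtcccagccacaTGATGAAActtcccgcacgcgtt

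Nupr1, Chac1 and Fgf21 shared TTGCATCA, the core read on the opposite strand, at positions -110 to -103, -193 to -186 and -139 to -132 from the start. In Asns the match was TGATGAAA at -23 to -16. The cyclic AMP response element TGACGTCA was present for Ppp1r15a alone among the 10 genes, at -12 to -5, and in 1.55% of all promoters. The core TGAGTCA, bound by AP-1 and by Bach proteins with small Maf partners, was present for Ddit3 alone, as TGACTCA at -242 to -236, and in 4.46% of all promoters. A match describes these letters only and is no measurement of binding. The genes that share TTGCATCA had fitted log2 differences between Bach2KO and Bach2WT of 1.03 for Nupr1, 0.21 for Chac1 and -0.66 for Fgf21.

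Per length, the 10 genes stood in the same order of mean level in both genotypes, from Nupr1 through Asns, Atf5, Atf4, Chac1, Fgf21, Ppp1r15a, Trib3 and Sesn2 to Ddit3. The order was read in FPKM, a level scaled to gene length and library depth, as deposited. In Bach2WT mice the means ran from 51.5 FPKM for Nupr1 to 0.229 FPKM for Ddit3. Among the 12820 tested genes, Nupr1 ranked 176 by mean FPKM in Bach2WT and 104 in Bach2KO. The ranges over mice of Asns and Atf5, of Atf5 and Atf4, and of Fgf21 and Ppp1r15a were apart in both genotypes. Those of Nupr1 and Asns, of Atf4 and Chac1, and of Chac1 and Fgf21 were apart in Bach2KO mice but overlapped in Bach2WT mice. At the low end, Ppp1r15a and Trib3, Trib3 and Sesn2, and Sesn2 and Ddit3 overlapped in range over mice in both genotypes. Compared within each mouse, Sesn2 was above Ddit3 in 4 of 4 Bach2WT and 2 of 4 Bach2KO mice. Ppp1r15a was above Trib3 in 3 of 4 Bach2WT and only 1 of 4 Bach2KO mice. Their Bach2KO means were nearly equal, at 0.8052 and 0.8048 FPKM.

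**Figure D1:**
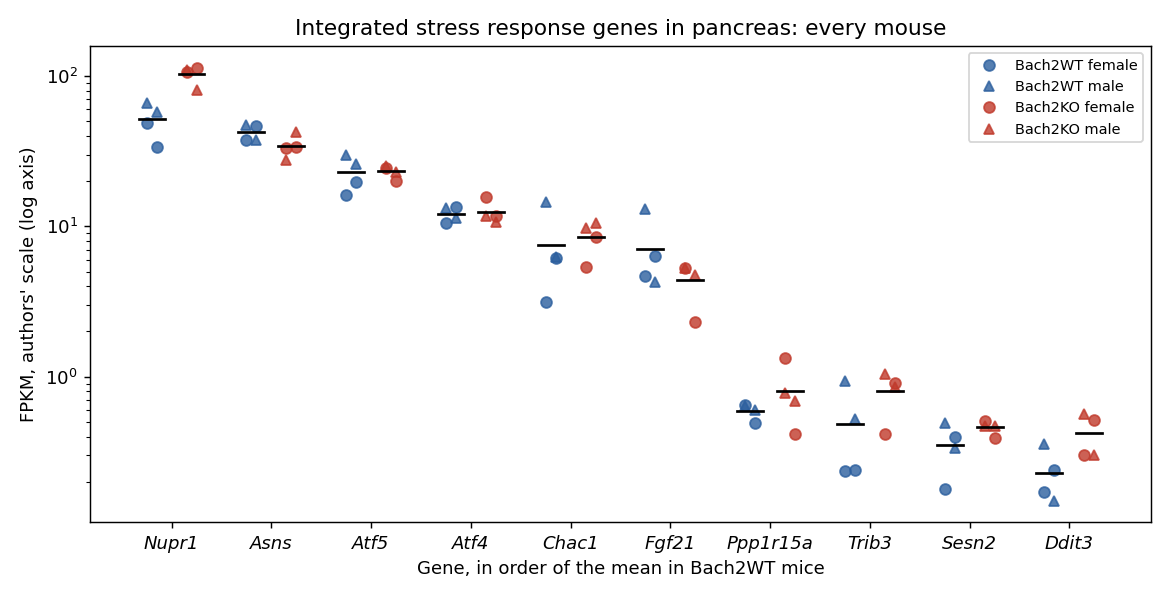
Level of the 10 genes in each mouse, in FPKM on a log axis, with circles for females, triangles for males and bars for the means of the 4 Bach2KO and 4 Bach2WT mice. Nupr1 is the highest gene in both genotypes, and its 4 Bach2KO points lie between 81.2 and 113.7 FPKM, above the 33.7 to 65.6 FPKM of Bach2WT.

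Nupr1 (ENSMUSG00000030717, GRCm39 chromosome 7, 126222421 to 126230033, minus strand) was at 106.3, 113.7, 109.9 and 81.2 FPKM in Bach2KO mice 1 to 4 and at 48.8, 33.7, 65.6 and 57.7 FPKM in Bach2WT mice 1 to 4. Every Bach2KO mouse was above every Bach2WT mouse, and the gap between the groups lay between Bach2KO 4 and Bach2WT 3. The means were 102.8 ± 14.7 and 51.5 ± 13.7 FPKM (SD, n = 4 each), a ratio of 2.00, and the fitted log2 difference in counts was 1.03 (SE 0.20). Between 10155 and 45604 counts per library lay behind these values. In bulk tissue, a change in the number of cells of a type and a change in RNA per cell cannot be told apart. The part of the acinar sum, which depends on the scaling, and of the neutrophil markers in the Nupr1 difference was not tested.

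Nupr1 was the only one of the 10 genes whose groups did not overlap in CPM, 1 of 10 or 10%, against 4.49% of all tested genes in either direction and 2.57% in the direction of higher values in Bach2KO. It was also the only one with an unadjusted edgeR p under 0.05, which 957 of all tested genes, or 7.46%, had. None of the 10 had an adjusted p under 0.05, and 1 of the 12820 genes, or 0.00780%, did. DESeq2 on the same counts called 1 of the 10, Nupr1, and 75 genes in all. The genes were chosen on this contrast, so these counts are no evidence of a difference. By sign, 8 of the 10 log2 differences were above 0 and 2 below, with a median of 0.31 beside 0.048 over all tested genes, and 8 lay within 2 SE of 0. With a correction for gene length the median over all tested genes moved to -0.065 and 6 of the 10 were above 0, Atf4 and Atf5 having changed sign.

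**Figure D2:**
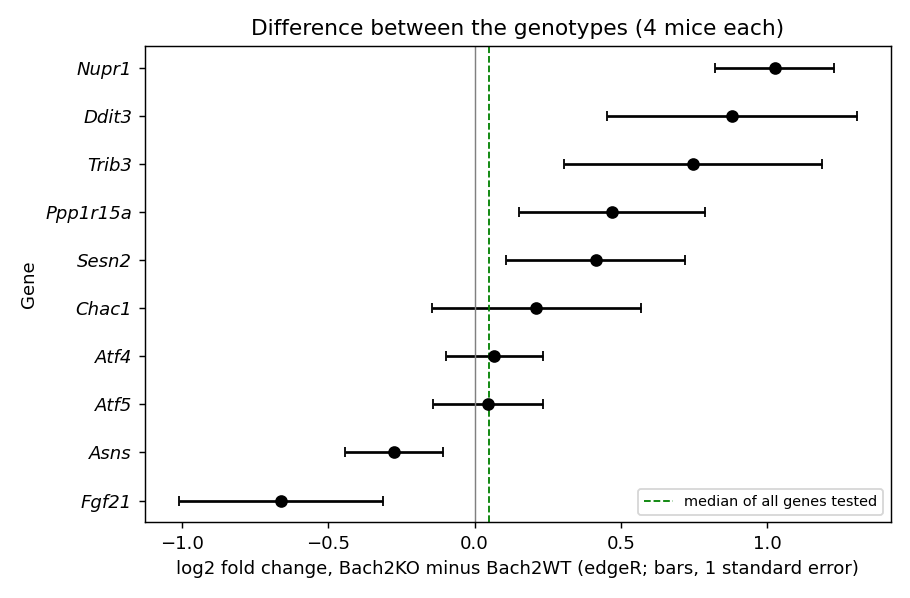
Fitted log2 difference of Bach2KO against Bach2WT for the 10 genes, with bars of 1 SE on either side and a dashed line at the median of all tested genes. Nupr1, at 1.03, is the gene farthest from 0 relative to its SE, while Atf4 and Atf5 lie next to 0 and Asns and Fgf21 lie below it.

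Of the transcription factors of the response, Atf4, its central activator (GRCm39 chromosome 15, 80139385 to 80141742, plus strand), had nearly the same mRNA level in both genotypes. It was at 15.7, 11.7, 11.7 and 10.8 FPKM in Bach2KO mice 1 to 4 and at 10.6, 13.4, 13.2 and 11.3 FPKM in Bach2WT mice 1 to 4. The groups overlapped throughout, only Bach2KO 1 lying above the Bach2WT range, and the log2 difference was 0.07 (SE 0.17). Without Bach2KO 1 it was -0.07.

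Atf5, a related factor translated under the same control (GRCm39 chromosome 7, 44461680 to 44466082, minus strand), was at 24.6, 20.1, 25.1 and 23.0 FPKM in Bach2KO mice 1 to 4. In Bach2WT mice 1 to 4 it was at 16.1, 19.7, 29.9 and 25.8 FPKM. The Bach2KO values lay inside the Bach2WT range, with a log2 difference of 0.05 (SE 0.19). Its gene overlaps Nup62 by 571 bases and Il4i1 by 272 bases on the opposite strand, and whether counting used strand is not stated, so reads of the shared bases are uncertain.

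Ddit3, which encodes the death-promoting factor CHOP (GRCm39 chromosome 10, 127126643 to 127132157, plus strand), was the least abundant of the 10 genes. It was at 0.301, 0.512, 0.569 and 0.301 FPKM in Bach2KO mice 1 to 4 and at 0.171, 0.241, 0.355 and 0.150 FPKM in Bach2WT mice 1 to 4. Both Bach2KO mice at 0.301 FPKM lay below Bach2WT 3, while all 4 Bach2KO mice were above the other Bach2WT mice. The log2 difference was 0.88 (SE 0.43), and it ranged from 0.69 without Bach2KO 3 to 1.17 without Bach2WT 3. Its values rest on 18 to 102 counts per library, and it overlaps Mars1, which had 1759 to 5245 counts, by 68 bases on the opposite strand.

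Among the target genes, Trib3, a pseudokinase that binds ATF4 and CHOP and dampens their action (GRCm39 chromosome 2, 152179342 to 152185952, minus strand), was at 0.416, 0.902, 1.05 and 0.855 FPKM in Bach2KO mice 1 to 4. In Bach2WT mice 1 to 4 it was at 0.235, 0.240, 0.939 and 0.524 FPKM. Bach2WT 3 reached the level of the Bach2KO mice, and Bach2KO 1 lay among the Bach2WT mice. The log2 difference was 0.75 (SE 0.44), and 1.30 without Bach2WT 3.

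Chac1, which degrades glutathione (GRCm39 chromosome 2, 119181710 to 119184862, plus strand), was at 5.38, 8.53, 9.80 and 10.5 FPKM in Bach2KO mice 1 to 4 and at 3.14, 6.17, 14.4 and 6.25 FPKM in Bach2WT mice 1 to 4. The highest value of all was that of Bach2WT 3 and the lowest that of Bach2WT 1, so the groups overlapped fully. The log2 difference of 0.21 (SE 0.36) became -0.04 without Bach2WT 1 and 0.74 without Bach2WT 3.

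Asns, asparagine synthetase (GRCm39 chromosome 6, 7675169 to 7693254, minus strand), was the second most abundant of the 10. It was at 33.0, 34.0, 27.6 and 42.7 FPKM in Bach2KO mice 1 to 4 and at 37.7, 46.3, 47.3 and 37.7 FPKM in Bach2WT mice 1 to 4. All but Bach2KO 4 lay below the Bach2WT range, and the log2 difference was -0.28 (SE 0.17). Sesn2, an inhibitor of the growth kinase complex mTORC1 (GRCm39 chromosome 4, 132219343 to 132237812, minus strand), was at 0.390 to 0.511 FPKM in Bach2KO and 0.178 to 0.494 FPKM in Bach2WT mice. Only Bach2KO 1 was above the Bach2WT range. Its log2 difference was 0.41 (SE 0.31), and 0.20 without Bach2WT 1.

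Ppp1r15a, also called GADD34, which directs the phosphatase that resets eIF2 (GRCm39 chromosome 7, 45172340 to 45175692, minus strand), was at 1.34, 0.414, 0.779 and 0.689 FPKM in Bach2KO mice 1 to 4. In Bach2WT mice it lay between 0.493 and 0.650 FPKM. Bach2KO 2 was the lowest of all 8 mice and the other Bach2KO mice were above the Bach2WT range, Bach2KO 1 by the most. The log2 difference of 0.47 (SE 0.32) was 0.09 without Bach2KO 1. The gene overlaps Tulp2 by 717 bases on the opposite strand.

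Fgf21, a hormone that exocrine pancreas makes and that promotes enzyme secretion (GRCm39 chromosome 7, 45263310 to 45264914, minus strand), was at 5.26, 2.30, 5.26 and 4.76 FPKM in Bach2KO mice 1 to 4. In Bach2WT mice 1 to 4 it was at 4.66, 6.32, 13.1 and 4.26 FPKM. Bach2KO 2 was the lowest mouse, Bach2WT 2 and Bach2WT 3 were above every Bach2KO mouse, and the other values overlapped. The mean was 4.39 ± 1.42 FPKM in Bach2KO and 7.08 ± 4.10 FPKM in Bach2WT (SD, n = 4 each), and the log2 difference of -0.66 (SE 0.35) was -0.19 without Bach2WT 3.

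The genes differed in how much they varied among mice of a genotype. The SD of log2 CPM within genotype was 0.22 for Atf4 and Asns, 0.29 for Atf5 and 0.33 for Nupr1, below the median of 0.50 over all tested genes. It was 0.66 for Fgf21, 0.70 for Chac1 and 0.78 for Trib3, above that median. A single mouse stood out in Bach2WT: Bach2WT 3 had the highest level of its genotype in 8 of the 10 genes, all but Atf4 and Ppp1r15a, and the lowest in none. In Bach2KO, by CPM as by FPKM, mouse 1 was the highest in Atf4, Sesn2 and Ppp1r15a and the lowest in Trib3 and Chac1. Bach2KO 3, the library that stood apart, was by both scales the highest of its genotype in Ddit3 and Trib3 and the lowest in Asns. For Atf5 and Fgf21, Bach2KO 1 was the highest by CPM and Bach2KO 3 by FPKM.

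**Figure D3:**
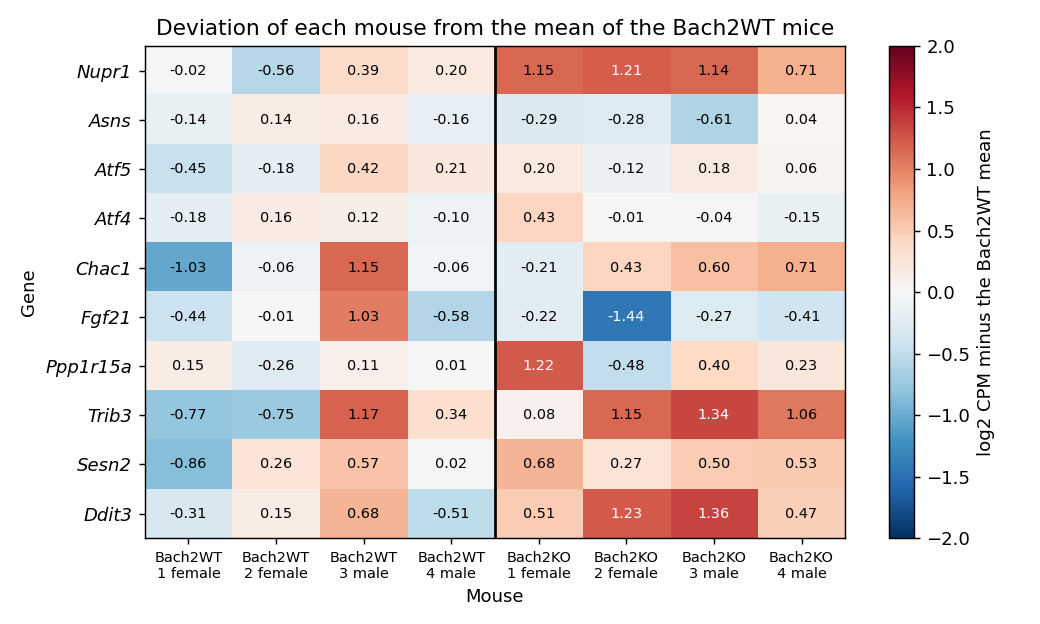
Log2 CPM of each mouse (columns) minus the Bach2WT mean for the 10 genes (rows), as colours with the value printed in each cell. The column of Bach2WT 3 is above 0 in all 10 rows, and the Bach2KO columns of Nupr1 lie between 0.71 and 1.21.

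When each mouse was set against the mean of its own genotype, 37 of the 45 pairs of genes had a correlation above 0. The share over pairs of all tested genes was not counted, so nothing is read from this count. Trib3 and Chac1 had the highest, with Pearson's r = 0.87 (exact permutation p = 0.0208, adjusted p = 0.688 over 45 pairs) and Spearman's rho = 0.81 (exact permutation p = 0.0278, adjusted p = 0.992) over 8 mice. Without the 2 mice farthest from the median, r was 0.71. Sex was not removed from these values, and both genes were higher in males, with log2 differences of 1.05 and 0.83. Within the females r was 0.62 and within the males 0.88. Atf4 and Sesn2 followed among pairs with an unadjusted p under 0.05, with r = 0.58 (exact permutation p = 0.0451, adjusted p = 0.688) and rho = 0.57 (exact permutation p = 0.156), and r was 0.70 without the 2 farthest mice. No pair passed the adjustment. The tests were two-sided and permuted mice within genotype.

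Sex played no part in the choice of the genes, so the 4 males and 4 females were compared with a test. In the edgeR fit with Benjamini-Hochberg adjustment, none of the 10 genes was called, beside 4 of all tested genes (0.0312%). At an unadjusted p under 0.05 there were 2 of 10, Trib3 and Chac1, beside 5.29% of all tested genes. Trib3 was at a mean of 1.81 CPM in males and 0.986 CPM in females, a log2 difference of 1.05 (SE 0.36, edgeR adjusted p = 0.890). Chac1 was at 17.0 CPM in males and 9.81 CPM in females, a log2 difference of 0.83 (SE 0.29, edgeR adjusted p = 0.890). Without Bach2WT 3, the male that was highest in most genes of the set, the log2 difference was 0.47 for Chac1 and 0.75 for Trib3. The male mean was above the female mean in the fit for 8 of the 10 genes, with a median log2 difference of 0.22 beside -0.031 over all tested genes. For Nupr1 the log2 difference between the sexes was 0.16 (SE 0.20, edgeR adjusted p = 0.943).

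Whether the genotype difference itself differed between the sexes was tested as an interaction. None of the 12820 tested genes was called in edgeR (0%), and 6.14% of them had an unadjusted p under 0.05. DESeq2 called 14 genes, edgeR with no filter on low counts 92, and edgeR without Bach2KO 2 called 6, with none of the 10 genes among them. Among the 10 genes, Nupr1 alone had an unadjusted edgeR p under 0.05 for the interaction. Its mean log2 CPM differed between the genotypes by 1.47 in females and 0.63 in males. The interaction, a coefficient fitted to the counts, was -0.80 (SE 0.36, edgeR adjusted p = 0.807). In FPKM, the Bach2WT females were at 48.8 and 33.7 and the Bach2WT males at 65.6 and 57.7, while the Bach2KO mice were at 106.3 and 113.7 in females and 109.9 and 81.2 in males. Since every Bach2KO mouse was above every Bach2WT mouse, the groups of 2 could not overlap between the genotypes in either sex.

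**Figure D4:**
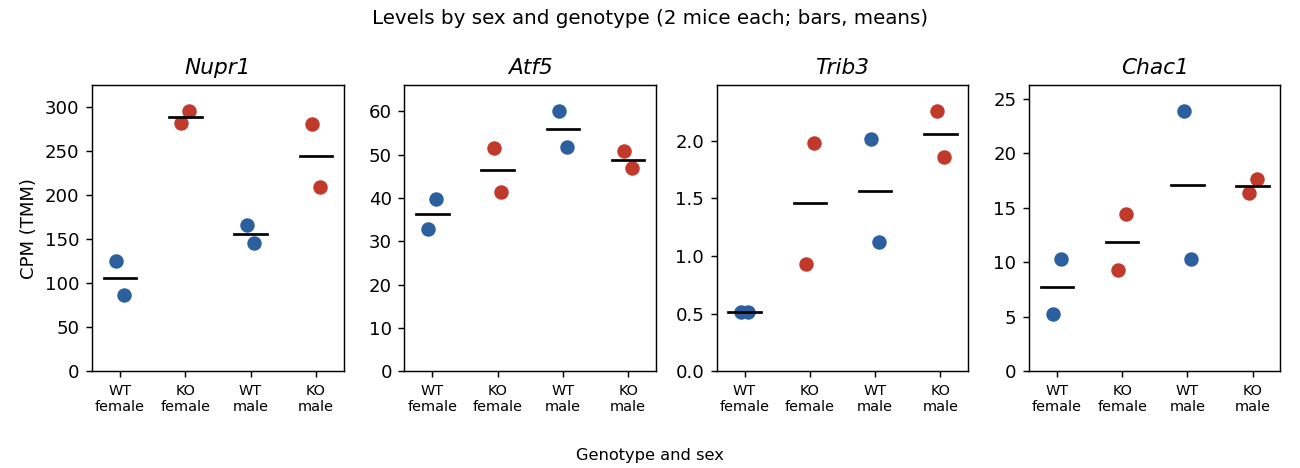
CPM per mouse in Bach2WT and Bach2KO females and males for Nupr1, Atf5, Trib3 and Chac1, with points for the 2 mice of a group, bars for their mean and axes that start at 0. For Nupr1, where every Bach2KO mouse lies above every Bach2WT mouse, the difference in mean log2 CPM is 1.47 in females and 0.63 in males.

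The remaining genes of the pathway were taken from 9 lists, which together held 115 different tested genes. None had an adjusted p under 0.05 between the genotypes in edgeR, the lowest being 0.352, while DESeq2 called 1, Ddit4. In edgeR 16 (13.9%, beside 7.46% of all tested genes) had an unadjusted p under 0.05, of which 12 were higher and 4 lower in Bach2KO. The list of acinar injury genes held 5 of the 16. The lists were chosen with earlier results of these data known, so no excess is read from these shares. The groups of 4 genes (3.48%, beside 4.49%) did not overlap. The median over all tested genes, against which those of the lists are to be read, was 0.048.

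Upstream, the 9 eIF2 kinases and their activators had 6 log2 differences above and 3 below 0, with a median of 0.13 and no unadjusted p under 0.05. Eif2ak3, the kinase PERK of the endoplasmic reticulum, had 0.34 (SE 0.18, edgeR adjusted p = 0.718), Gcn1, an activator of GCN2, had 0.26 (SE 0.18, edgeR adjusted p = 0.796), and Eif2ak4, the amino acid sensor GCN2, had 0.40 (SE 0.43, edgeR adjusted p = 0.907). Among 9 genes of eIF2, its exchange factor eIF2B and the constitutive phosphatase subunit, 5 were above and 4 below 0, with a median of 0.02. Eif2b2, a subunit of eIF2B, was at 12.4 ± 1.28 CPM in Bach2KO and 15.6 ± 1.47 CPM in Bach2WT (SD, n = 4 each) with groups that did not overlap, a log2 difference of -0.33 (SE 0.15, edgeR adjusted p = 0.663).

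The 9 bZIP partners, with which ATF4 and CHOP form dimers, all had log2 differences above 0, with a median of 0.40, and 1 of 9 had an unadjusted p under 0.05. This was Jun, at 2.53 ± 0.632 CPM in Bach2KO and 1.29 ± 0.795 CPM in Bach2WT, a log2 difference of 0.97 (SE 0.36, edgeR adjusted p = 0.607). Cebpb and Cebpd, factors of acute stress and inflammation, had 1.07 (SE 0.51, edgeR adjusted p = 0.670) and 1.03 (SE 0.51, edgeR adjusted p = 0.695).

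The 30 further target genes of ATF4 and CHOP were split, with 14 above and 16 below 0, a median of -0.07, and 3 in each direction at an unadjusted p under 0.05. Those on the higher side were Ddit4, Bbc3 and Bcl2l11, known respectively as an mTORC1 inhibitor and as promoters of apoptosis. Ddit4 was at 8.12 ± 4.59 CPM in Bach2KO and 2.42 ± 1.04 CPM in Bach2WT, a log2 difference of 1.73 (SE 0.41, edgeR adjusted p = 0.352). Bbc3 had 1.77 (SE 0.56, edgeR adjusted p = 0.531) and Bcl2l11 had 1.40 (SE 0.48, edgeR adjusted p = 0.560), and the groups of Ddit4 and of Bbc3 did not overlap. Levels were low for Bbc3, at 1.15 CPM in Bach2KO and 0.330 CPM in Bach2WT, and for Bcl2l11, at 0.730 and 0.280 CPM. Those on the lower side were Pycr1, Shmt2 and Slc6a9, which serve proline synthesis, serine and glycine conversion and glycine uptake. Pycr1 was at 29.2 ± 7.72 CPM in Bach2KO and 48.2 ± 12.6 CPM in Bach2WT, a log2 difference of -0.73 (SE 0.23, edgeR adjusted p = 0.534). Shmt2 had -0.47 (SE 0.20, edgeR adjusted p = 0.643) and Slc6a9 had -0.44 (SE 0.19, edgeR adjusted p = 0.660). Asns, the amino acid synthesis gene of the set, lay on the same side of 0.

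The chaperones and degradation genes of the endoplasmic reticulum, which the ATF6 and XBP1 arms of the unfolded protein response control, had 12 of 23 above 0, a median of 0.02 and none at an unadjusted p under 0.05. Edem1, which directs misfolded glycoproteins to degradation, was at 109 ± 9.06 CPM in Bach2KO and 136 ± 22.7 CPM in Bach2WT, a log2 difference of -0.32 (SE 0.16, edgeR adjusted p = 0.684). The 12 tested mitochondrially encoded mRNAs were all above 0 with a median of 0.17, and none had an unadjusted p under 0.05. Bach2KO 3 had 0.367% of its counts on mitochondrially encoded genes. The other Bach2KO libraries had 0.126 to 0.148%, inside the 0.118 to 0.178% of the Bach2WT libraries. How far the shared sign rests on Bach2KO 3 was not tested.

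Of 8 tested genes among the paralog and partners of Nupr1, 7 were above and 1 below 0, with a median of 0.34. Those with an unadjusted p under 0.05 were Lcn2, the iron-binding lipocalin, and Relb, a subunit of NF-kappaB. Lcn2 was at 0.862 ± 0.547 CPM in Bach2KO and 0.163 ± 0.0869 CPM in Bach2WT, a log2 difference of 2.37 (SE 0.70, edgeR adjusted p = 0.513), and Relb had 1.10 (SE 0.42, edgeR adjusted p = 0.618). Among 5 genes of the FGF21 receptors and their coreceptor, 4 were above 0, with a median of 0.35. Fgfr1 was at 7.03 ± 0.584 CPM in Bach2KO and 4.96 ± 0.933 CPM in Bach2WT with no overlap, a log2 difference of 0.50 (SE 0.18, edgeR adjusted p = 0.593). Klb, the coreceptor that FGF21 needs, had 0.19 (SE 0.24, edgeR adjusted p = 0.925).

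Genes of acinar injury, among which Nupr1 is often counted, had 8 of 10 above 0, a median of 0.41 and 5 at an unadjusted p under 0.05, all higher in Bach2KO. They were Reg3g, Reg2, Reg3b and Reg3a, secreted lectins of the injured pancreas, and Spink1, the trypsin inhibitor. Reg3g was at 37.4 ± 36.8 CPM in Bach2KO and 5.24 ± 4.75 CPM in Bach2WT (SD, n = 4 each), a log2 difference of 2.84 (SE 0.84, edgeR adjusted p = 0.513). Spink1 was at 447.9 ± 77.2 CPM in Bach2KO and 345.9 ± 33.5 CPM in Bach2WT, a log2 difference of 0.37 (SE 0.16, edgeR adjusted p = 0.655).

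**Figure D5:**
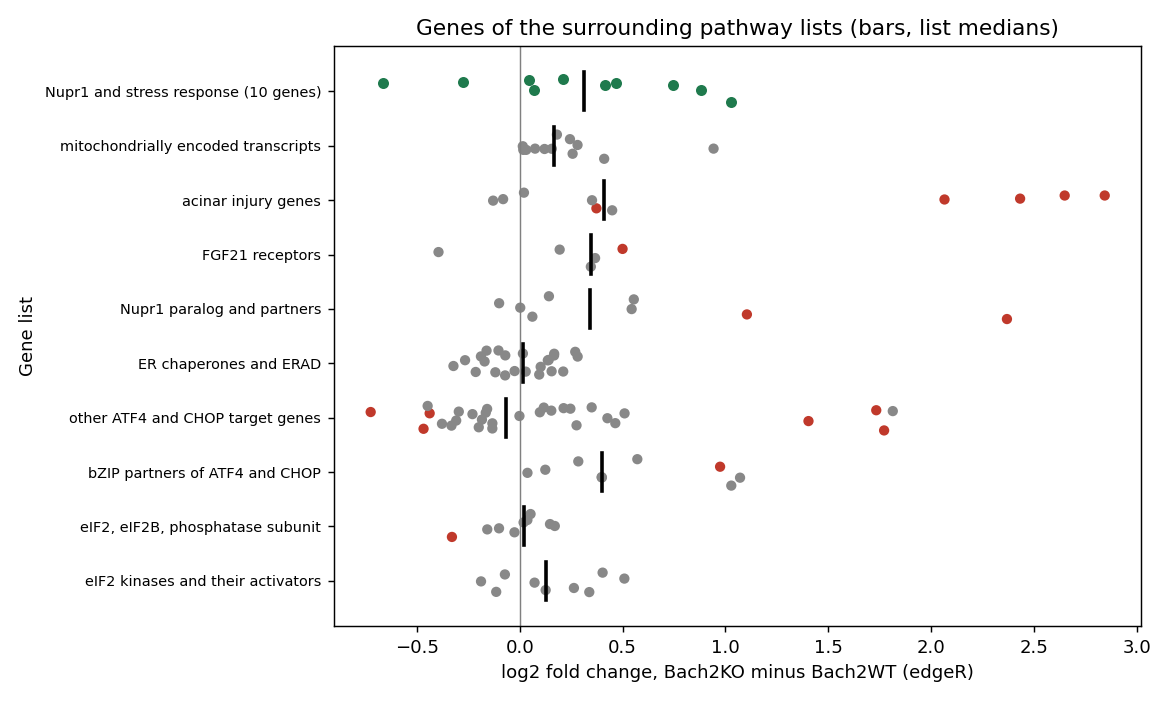
Log2 difference of Bach2KO against Bach2WT for each tested gene of the 9 pathway lists (grey, or red for an unadjusted p under 0.05) and the 10 genes of the set (green), with bars at the list medians. The further ATF4 and CHOP targets spread to both sides of 0, while the bZIP partners and the mitochondrially encoded mRNAs all lie above it.

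The genes whose level followed that of Nupr1 most closely over the 8 libraries were sought among 6765 genes with a mean of at least 1 CPM. Among those with the highest Pearson's r of log2 CPM were Cox7b (0.95), Plxnb1 (0.94), Cog2 (0.94), Maf1 (0.94), Msi2 (0.92), Nhlrc2 (0.92), Zfyve27 (0.92), Cirbp (0.91) and Brsk2 (0.91). None of these 9 belongs to the set. In all 9 the Bach2KO mice lay above the Bach2WT mice without overlap, beside 2.57% of all tested genes. Nupr1 itself splits the genotypes, so genes picked for following it tend to split them too, and nothing is read from this count. Within the set, r with Nupr1 was 0.73 for Ddit3 and Trib3, 0.50 for Sesn2, 0.39 for Ppp1r15a, 0.38 for Atf5 and Chac1, and 0.16 for Atf4. It was -0.35 for Fgf21 and -0.68 for Asns. These values describe libraries that share depth, mouse and the genotype difference on which Nupr1 was chosen.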

How the data were processed

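The authors deposited 1 table with raw counts per gene and library. Per the submitters' processing notes, fastp, HISAT2 2.2.1 and featureCounts 2.0.6 were used on mm39. Whether strand or both mates were counted is not given in the sources used here. The deposited table also holds a size-factor-scaled signal and FPKM values, which the authors made from that signal and the gene length. It further holds the authors' own genotype comparison (log2 ratio, raw and adjusted p), which was not used.

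Genotypes were compared on the counts with edgeR 4.0.16 in R 4.3.3 (quasi-likelihood test, TMM factors, filterByExpr, no covariate, 8 mice, Benjamini-Hochberg adjustment, threshold 0.05). Sex and its interaction with genotype were fitted over the same genes. The genotype fit and the length correction were tested on simulated data, and the other steps were not. CPM values use the TMM factors, and log2 CPM a prior count of 2. An SE is the log2 difference divided by the square root of F. The members and lists were chosen with earlier results of these data known. The text names all 10 members, list genes that were called or among the 3 smallest p of their list, and the 10 genes most like Nupr1, of which 1 is not reported here. List genes past an unadjusted p of 0.05 were named after their values were seen. Alternatives were RLE factors, DESeq2 1.42.0, other filters, sex as a covariate, the replicate block, a loess correction for gene length (span 0.3), counts divided by 2, normalization without enzyme genes, and leaving out each mouse.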

Additional observations from a re-analysis of the deposited data

Results flagged for a closer look

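Nupr1 in Bach2KO 4 lay apart from the other Bach2KO mice, at 208.9 CPM against 281.0 CPM for the nearest. Its gap was 0.832 of the range of the group, just past Dixon's critical value for 4 samples. There were 20 groups of 4 mice tested in this way, of which chance flags about 1 in 20.

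Atf5 moved in opposite directions in the sexes. Its difference in mean log2 CPM, Bach2KO against Bach2WT, was 0.36 in females and -0.20 in males, and in each sex both Bach2KO mice lay on that side of both Bach2WT mice. The interaction fitted to the counts was -0.56 (SE 0.31), with an edgeR adjusted p of 0.854. So few mice can split in this way by chance, and the share of all tested genes that do so was not counted.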

How the results depend on the processing

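The Nupr1 log2 difference stayed above 0 in all 17 alternatives, between 0.87 without Bach2WT 2 and 1.16 without Bach2WT 3, with 1.05 under the replicate block and 0.93 with the length correction. Sign changes among the members were seen for Atf4 in 2, Atf5 in 4 and Chac1 in 1. The number of genes called between genotypes, 1 in the fit described, was 75 with DESeq2 (52 higher, 23 lower), 73 with no filter (55 higher, 18 lower), and 0 with at least 10 counts per library, with sex as a covariate, with the replicate block, with counts divided by 2 and with each mouse left out (0 to 0). Members called rose from 0 to 1, Nupr1, with DESeq2 and with no filter. Pathway genes called rose from 0 to 1 (Ddit4) with DESeq2 and to 2 (Ddit4 and Reg3g) with no filter. Members called by sex rose from 0 to 1 (Chac1) with no filter, beside a rise from 4 to 152 over all genes, and were 0 with DESeq2, beside 19 over all genes. The cause of these moves was not tested. Genes with an unadjusted p under 0.05 were higher in Bach2KO for 52.2% in the fit described and 30.3% (327 higher, 752 lower) with the length correction, which moved the median of all genes from 0.048 to -0.065. Same-numbered mice correlated at 0.21, -0.03, -0.04 and -0.05, beside -0.16 to 0.11 for the other pairs of a Bach2KO and a Bach2WT mouse. These values do not settle whether the numbers pair the samples. With 4 mice a group and a median SD of 0.499 on the log2 scale, small differences were not detectable.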
